A study of Mus musculus with 4 samples.

Results

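Interferon regulatory factors (IRFs) are transcription factors that bind a short DNA element shared by interferon genes and interferon-stimulated genes. IRF3, IRF5 and IRF7 act below receptors for microbial nucleic acids and switch on interferon genes, IRF9 carries the signal of type I interferon receptors to DNA, and IRF1 and IRF2 act on partly the same sites as activator and antagonist. IRF4 and IRF8 work mainly in lymphoid and myeloid cells, bind DNA together with ETS or BATF-AP-1 partners, and IRF4 is known for its part in type 2 cytokine expression in lymphocytes, group 2 innate lymphoid cells (ILC2s) included.

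The 8 genes *Irf1*, *Irf2*, *Irf3*, *Irf4*, *Irf5*, *Irf7*, *Irf8* and *Irf9* were taken by symbol from a table of 24537 genes, and all 8 had a mean of at least 2 RPKM (reads per kilobase of exon and of sequencing depth) and entered the test. RNA came from ILC2s of bronchoalveolar lavage (BAL) fluid, sorted as lineage-negative (CD11b, CD11c, FcεRIα and other lineage antigens), Sca-1+ and YFP+ cells of C57BL/6 GATIR mice, in which an IRES-YFP cassette in *Gata3* reports its expression. In the IL-33 group (2 libraries) mice had received 3 doses of 0.5 µg of the alarmin IL-33, and in the chronic HDM group (2 libraries) 25 µg of house dust mite extract 3 times a week for 5 weeks. Cells of both groups were taken 1 day after the last dose, and the mice of the study were 8 to 16 weeks old. By the sample labels the IL-33 mice were Gata3-YFP/YFP and their cells CD25High, and the HDM mice Gata3-YFP/WT and their cells CD25Low, so that the stimulus cannot be told apart from the reporter genotype or from a CD25 gate. The study's methods name homozygous mice only and no CD25 gate. The number of mice behind each library is not given in the sources used here, so the p-values rest on the spread among 4 libraries alone, part or all of which may be technical.

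Steps of 1 read could be read off the RPKM values, and they gave 10696041 to 12054781 reads in genes after IL-33 and 15650722 to 16092267 after chronic HDM. Reads of 45S ribosomal RNA made up 3.45% to 4.95% after IL-33 and 17.4% to 25.4% after chronic HDM. Genes detected numbered 13102 and 12895 in the IL-33 libraries, 10675 in chronic HDM replicate 1 and 12134 in replicate 2. Replicate 1 of chronic HDM thus had the fewest genes detected, although it was not the shallowest library. The chronic HDM libraries were also less alike, with a median absolute log2 difference between the libraries of 0.57, against 0.23 after IL-33. All 14 ILC2 markers on the list used (among them *Gata3*, *Il1rl1*, *Klrg1*, *Rora* and *Id2*) were detected in every library. Of 12 macrophage markers, 10 and 8 were detected after IL-33, 5 in chronic HDM replicate 1 and 12 in chronic HDM replicate 2. Their summed level was 24.0 to 90.3 RPKM after IL-33 and 961 to 2421 RPKM after chronic HDM, most of it *Lyz2*. Without *Lyz2* the sum was 20.1 and 6.81 RPKM after IL-33, 28.3 RPKM in chronic HDM replicate 1 and 162 RPKM in replicate 2. *Siglech* of plasmacytoid dendritic cells and *Ms4a1* and *Pax5* of B cells had no reads in any library. Of 8 plasmacytoid dendritic cell markers, 4 entered the test, and these divided. *Ccr9* (20.9 and 18.0 RPKM, IL-33 pair 0.477 and 1.14) and 1 more were higher in both chronic HDM libraries. *Cox6a2* (6.54 and 7.03 RPKM, chronic HDM pair 0.954 and 0) and 1 more were higher in both IL-33 libraries. Only *Ccr9* was called (adjusted p = 0.00994 from limma). The part of such cells in the *Irf7* level was not tested.

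The family was present throughout but its make-up differed between the groups. *Irf4* was among the middle members after IL-33 and last but 1 after chronic HDM, whereas *Irf7* stood near the bottom after IL-33 and among the top 3 after chronic HDM. On the RPKM scale, which corrects for exon length, the order after IL-33 was *Irf3*, *Irf1*, *Irf9*, *Irf4* and *Irf2* in both libraries, followed by *Irf5* and *Irf7*, whose values overlapped, and *Irf8* last. *Irf3* and *Irf1* stood next to each other there, and their means (61.2 and 56.6 RPKM) differed by about the SD of *Irf3* (4.55 RPKM, n = 2). After chronic HDM the values of *Irf7*, *Irf1* and *Irf3* overlapped at the top, those of *Irf3*, *Irf9* and *Irf5* overlapped below them, and *Irf2*, *Irf4* and *Irf8* followed without overlap. The level of each gene rests on 1 RefSeq transcript, so the order could change where another isoform is the main one. For *Irf7* the counted exons had 1751 bases, whereas the GENCODE M21 transcript matched to the same RefSeq entry has 2237. The lengths of the other members were close. The rank of *Irf7*, its share of the family and its ratio to *Irf4* depend on that length.

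**Figure D1:**
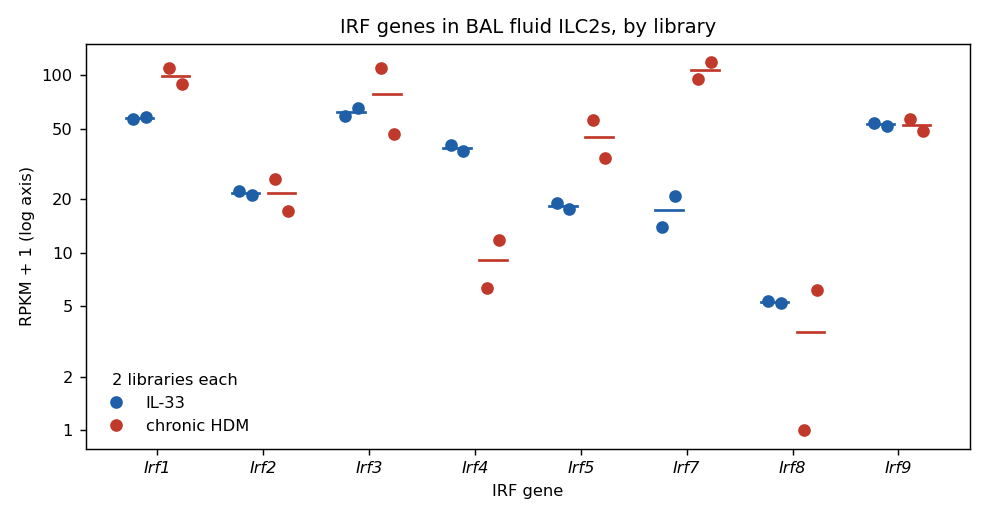
RPKM + 1 on a log axis for the 8 IRF genes, each of the 4 libraries as 1 point (blue, IL-33; red, chronic HDM) and horizontal lines for the means of 2 libraries. *Irf4* lies higher in both IL-33 libraries (39.6 and 36.6 RPKM against 5.35 and 10.8), *Irf7* and *Irf5* lie higher in both chronic HDM libraries, and *Irf8* has no reads in 1 chronic HDM library.

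Of the 8 members, *Irf7* was called, as higher after chronic HDM, by limma on log2(RPKM + 1), where a call needed a log2 fold change beyond 1 and an adjusted p (over 9523 genes) below 0.01. This is 1 of 8, beside 3.34% of all tested genes called in either direction, 2.8% higher after IL-33 and 0.536% higher after chronic HDM. At an adjusted p under 0.05 and the same fold, *Irf4* was added as higher after IL-33. This is 2 of 8 in both directions together, beside 18.5% of all tested genes. The libraries of the groups did not overlap for 4 of 8 members, *Irf4* upward after IL-33 and *Irf1*, *Irf5* and *Irf7* upward after chronic HDM. Over all tested genes 65.2% did not overlap, 41.7% with higher values after IL-33 and 23.5% with higher values after chronic HDM, so that non-overlap by itself was no more common among the members. The median log2 fold change of the 8 members was -0.09, beside 0.28 for all tested genes. A positive log2 fold change means more RNA in the IL-33 group, and the added 1 understates the change of genes near 0 RPKM.

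**Figure D2:**
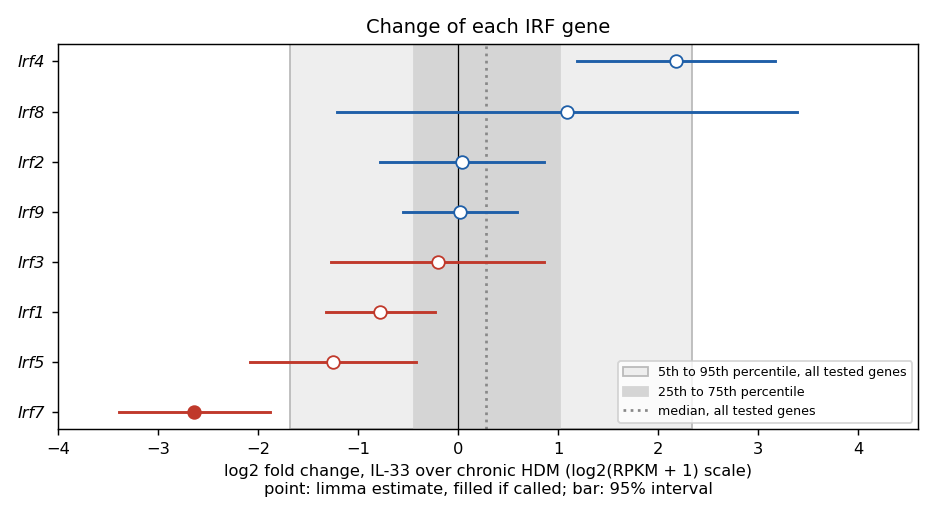
Log2 ratio (IL-33 to chronic HDM, log2(RPKM + 1) scale) of each IRF gene from limma, with its 95% interval; the filled point is the called gene, and the shaded bands give the spread over all 9523 tested genes. *Irf7* (-2.64) lies below the 5th percentile of all genes (-1.68), *Irf4* (2.17) lies inside the 95th percentile (2.34), and the intervals of *Irf2*, *Irf3*, *Irf8* and *Irf9* span 0.

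The core promoters of *Irf7* and *Irf4*, the members with the lowest and the highest log2 fold change, are shown with that of *Irf8* because all 3 hold a TATA box, which most promoters lack. The 60 bases before the start site of the counted transcript are printed 5′ to 3′ (RefSeq sequence, GRCm38.p6, the assembly of mm10), in lower case with a TATA box in capitals. *Irf7* lies on chromosome 7 on the minus strand (chr7:141266425-141266484), *Irf4* on chromosome 13 on the plus strand (chr13:30749173-30749232) and *Irf8* on chromosome 8 on the plus strand (chr8:120736298-120736357). *Irf1* on chromosome 11, plus strand (chr11:53769954-53770013), is added for comparison.
Irf7: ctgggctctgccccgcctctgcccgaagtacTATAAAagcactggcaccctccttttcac
Irf4: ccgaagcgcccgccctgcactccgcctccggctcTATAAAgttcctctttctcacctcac
Irf8: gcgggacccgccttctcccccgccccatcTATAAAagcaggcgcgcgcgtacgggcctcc
Irf1: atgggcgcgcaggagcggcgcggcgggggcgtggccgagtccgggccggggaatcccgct
The letters TATAAA, searched on the sense strand in the last 40 bases, began 29, 26 and 31 bases before the start site of *Irf7*, *Irf4* and *Irf8* and were not in that window of the other 5 members. Of 32851 promoters in the same table, 2.31% held these letters in this window. The motif was chosen after the sequences had been seen. In the 250 bases before the start site, GC content ran from 53.6% for *Irf9* to 72.0% for *Irf5*, against a median of 52.4% over all promoters.

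Motifs of factors in the IRF pathway were searched in the same 250 bases, on both strands, for all 8 members, each of which matched the table by symbol and start site. These were the interferon-stimulated response element (GAAANNGAAA, in 2.98% of 32851 promoters), the ETS-IRF composite element (GGAANNGAAA, 2.3%), the STAT-binding GAS element (TTCNNNGAA, 7.02%) and the AP-1 site (TGANTCA, 6.75%). *Irf1*, a gene known to be induced by interferon-γ, held 1 GAS match that began 90 bases before its start site (chr11:53769899-53769957, plus strand), *Irf8* held 2 that began 171 and 153 bases before it (chr8:120736162-120736220 and chr8:120736180-120736238), and *Irf2* held 1 GAS match as well as 1 response element that overlapped 1 ETS-IRF match (chr8:46739495-46739538). Capitals mark the match, and the response element is the one shown for *Irf2*.
Irf1: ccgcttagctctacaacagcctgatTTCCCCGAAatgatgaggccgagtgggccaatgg
Irf8: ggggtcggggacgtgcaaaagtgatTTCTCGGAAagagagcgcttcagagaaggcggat
Irf8: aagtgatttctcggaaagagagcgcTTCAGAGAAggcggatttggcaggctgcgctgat
Irf2: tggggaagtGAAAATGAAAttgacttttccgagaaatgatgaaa
These letters were not found in the windows of *Irf3*, *Irf4*, *Irf5*, *Irf7* and *Irf9*. No match says only that these letters are not in this window.

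*Irf7*, the member that amplifies interferon production and is itself an interferon-stimulated gene, lies on chromosome 7 (141263183 to 141266424, minus strand, mm10), behind the TATA-box promoter printed above. Its exons held 12.95 and 19.9 RPKM in the IL-33 libraries, from 297 and 409 reads, against 94.4 and 117 RPKM in the chronic HDM libraries, from 3179 and 3783 reads. Both chronic HDM libraries were far above both IL-33 libraries. Among the genes detected in a library, *Irf7* stood at percentiles 62.9 and 69.3 after IL-33 and at percentiles 93.2 and 96.2 after chronic HDM. The IL-33 mean was 16.4 ± 4.91 RPKM and the chronic HDM mean 106 ± 16.3 RPKM (SD, n = 2 each), a ratio of 6.45 (log2 fold change -2.64, 95% interval -3.39 to -1.88, standard error 0.30, adjusted p = 0.00844 from limma). Counted from the chronic HDM end, this was rank 116 of 9523 tested genes. The macrophage markers moved with *Irf7* only in part. Of the 12, 5 were detected in chronic HDM replicate 1, where *Lyz2* (933 RPKM), *Mertk* (12.8 RPKM) and *Adgre1* (9.25 RPKM) were far above both IL-33 libraries while *Apoe*, *C1qb*, *Mrc1* and others had no reads, and all 12 were detected in replicate 2. Their part in the *Irf7* level was not tested. In fits without 1 library, the lone library of a group is assumed to vary like the pair of the other group. *Irf7* was called without chronic HDM replicate 1 or 2, where the closer IL-33 pair sets the spread and 513 and 664 genes were called on the chronic HDM side in place of 51. The call ended without IL-33 replicate 1 (log2 fold change -2.35, adjusted p = 0.324) or IL-33 replicate 2 (-2.93, adjusted p = 0.297), where the chronic HDM pair sets the spread and no gene of the table was called. It also ended under quantile normalization (adjusted p = 0.0104), scaling without 45S RNA (0.0114), a pseudocount of 0.1 (0.0164), no minimum RPKM (0.0371), no intensity trend (0.0263) and limma-voom on recovered reads (0.0187), with the same direction each time.

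*Irf5*, which acts below Toll-like receptors and is best known from macrophages and B cells, lies on chromosome 6 (29526625 to 29537320). It was at 18.2 RPKM in IL-33 replicate 1 and 16.7 RPKM in replicate 2, from 518 and 428 reads, and at 55.1 and 33.3 RPKM in the respective chronic HDM libraries, from 2308 and 1333 reads. The chronic HDM libraries were both higher but differed from each other by a ratio of 1.66. The means were 17.4 ± 1.01 and 44.2 ± 15.4 RPKM (SD, n = 2 each), a ratio of 2.53. *Irf5* did not pass the test (log2 fold change -1.25, 95% interval -2.08 to -0.42, adjusted p = 0.0532 from limma). The study, which used DESeq2, describes *Irf5* as upregulated after chronic HDM. The larger value came from chronic HDM replicate 1. Macrophage markers without *Lyz2* summed to 28.3 RPKM there, against 162 RPKM in replicate 2. *Adgre1* (9.25 against 3.43 RPKM) and *Mertk* (12.8 against 7.88 RPKM) were higher in replicate 1, and the other markers on that list were higher in replicate 2. In these bulk samples fewer cells of a type and less RNA per cell cannot be told apart. The part of other cells in the *Irf5* level was not tested. With the spread taken from the IL-33 pair alone, *Irf5* was called without chronic HDM replicate 2 (log2 fold change -1.61, adjusted p = 0.00379) and not without replicate 1 (-0.89, adjusted p = 0.0208).

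*Irf3*, the constitutive partner of *Irf7* in interferon induction, lies on chromosome 7 (44997648 to 45002848). It was at 58.0 RPKM in IL-33 replicate 1 and 64.4 RPKM in replicate 2 and at 109 and 45.7 RPKM in the respective chronic HDM libraries. The chronic HDM libraries lay on both sides of the IL-33 libraries, and the log2 fold change was -0.21 (95% interval -1.27 to 0.86, adjusted p = 0.759 from limma). The sign turned without chronic HDM replicate 1 (0.41), and the interval is wide enough to hold a change of more than 2-fold toward chronic HDM on this scale. Of its exon bases, 8 are also exon of *Bcl2l12* on the other strand, and reads of the overlap cannot be told apart without strand information.

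*Irf4*, the member tied to effector function in activated lymphocytes, lies on chromosome 13 (30749233 to 30766981), also behind a TATA box. It was at 39.6 RPKM in IL-33 replicate 1 and 36.6 RPKM in replicate 2, from 2463 and 2039 reads, and at 5.35 and 10.8 RPKM in the respective chronic HDM libraries, from 488 and 943 reads. Both IL-33 libraries were higher than both chronic HDM libraries. The IL-33 mean was 38.1 ± 2.15 RPKM and the chronic HDM mean 8.07 ± 3.85 RPKM (SD, n = 2 each), a ratio of 4.72 (log2 fold change 2.17, 95% interval 1.19 to 3.16, standard error 0.39). *Irf4* missed the threshold of 0.01 (adjusted p = 0.0204 from limma). The study, which used DESeq2, names IRF4 among the innate signal mediators that were prominent after IL-33. Among all tested genes its change was at percentile 93.9, rank 584 from the IL-33 end. The adjusted p was 0.00198 and 0.00185 without chronic HDM replicate 1 or 2 (log2 fold changes 1.73 and 2.62), where the IL-33 pair alone sets the spread and 1881 and 1960 genes were called on the IL-33 side, and 0.3596 and 0.3295 without IL-33 replicate 1 or 2. It was 0.00714 with a weight for each library and 0.0517 with no minimum RPKM.

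*Irf8*, a regulator of myeloid and dendritic cell development, lies on chromosome 8 (120736358 to 120756692) and was the lowest member in every library. It was at 4.34 RPKM in IL-33 replicate 1 and 4.24 RPKM in replicate 2, from 161 and 141 reads. Chronic HDM replicate 1 had no read, which allows up to 0.0551 RPKM at 3 reads, and replicate 2 had 269 reads, or 5.16 RPKM. That floor covers counting error only. Replicate 1 had the fewest genes detected (10675), so no read there does not establish that the RNA was absent. The IL-33 libraries thus lay between the chronic HDM libraries, and no direction could be given (log2 fold change 1.09, 95% interval -1.21 to 3.39, adjusted p = 0.435 from limma). Without chronic HDM replicate 1 the sign turned (-0.22, adjusted p = 0.612). Without replicate 2, which leaves the library with no read against the IL-33 pair and its spread, *Irf8* was at 2.40 (adjusted p = 0.00374). *Spi1*, which encodes PU.1, an ETS partner of IRF8 in myeloid cells, was at 3.63 RPKM in chronic HDM replicate 1 and 21.5 RPKM in replicate 2, and at 3.32 and 0.470 RPKM in the IL-33 libraries. All 12 macrophage markers were at 2 RPKM or more in chronic HDM replicate 2, 4 of 12 in replicate 1, and 3 and 2 of 12 in the IL-33 libraries, in which *Irf8* was nearly as high as in chronic HDM replicate 2. Whether other cells carried the *Irf8* reads was not tested.

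*Irf1*, an activator induced by interferon-γ and other cytokines, lies on chromosome 11 (53770014 to 53777324). It was at 55.7 RPKM in IL-33 replicate 1 and 57.5 RPKM in replicate 2 and at 109 and 87.9 RPKM in the respective chronic HDM libraries, with both chronic HDM libraries higher. The means of 56.6 ± 1.23 and 98.4 ± 14.8 RPKM (SD, n = 2 each) differ by a ratio of 1.74, and *Irf1* did not pass the test (log2 fold change -0.78, 95% interval -1.32 to -0.23, adjusted p = 0.0597 from limma). Of its exon bases, 100 are also exon of *Gm17334* on the other strand in GENCODE M21, and reads there cannot be told apart. *Irf2*, the antagonist, lies on chromosome 8 (46739745 to 46847458) and was at 21.4 RPKM in IL-33 replicate 1 and 20.3 RPKM in replicate 2 and at 25.1 and 16.3 RPKM in the respective chronic HDM libraries. Its groups overlapped, with a log2 fold change of 0.04 (95% interval -0.78 to 0.86, adjusted p = 0.947). *Irf9*, which serves type I interferon receptors, lies on chromosome 14 (55604579 to 55610030) and was at 53.1 RPKM in IL-33 replicate 1 and 51.1 RPKM in replicate 2 and at 55.7 and 47.3 RPKM in the respective chronic HDM libraries. It had the narrowest interval of the members whose groups overlapped (log2 fold change 0.02, 95% interval -0.55 to 0.58, adjusted p = 0.962). The signs of *Irf2* and *Irf9* turn under other scalings of the libraries (quantile, median-of-ratios and without 45S RNA, -0.22, -0.18 and -0.35 for *Irf2* and -0.46, -0.21 and -0.38 for *Irf9*), so no direction is given for either.

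Shares within the family do not depend on a scale factor between libraries. *Irf4* made up 15.05% and 13.5% of the summed RPKM of the 8 genes in the IL-33 libraries against 1.18% and 2.97% in the chronic HDM libraries. *Irf7* made up 4.92% and 7.35% in the IL-33 libraries against 20.8% and 32.3% in the chronic HDM libraries. The RPKM of *Irf7* was thus 0.327 and 0.544 times that of *Irf4* in the IL-33 libraries and 17.7 and 10.9 times that of *Irf4* in the chronic HDM libraries. *Irf5* and *Irf8* together made up 8.54% and 7.74% in the IL-33 libraries against 12.2% and 10.6% in the chronic HDM libraries. The share of *Irf9* was lower after chronic HDM (20.2% and 18.9% against 12.3% and 13.01%), although its own RPKM overlapped, because the family sum was higher there. The family summed to 263 and 271 RPKM in the IL-33 libraries and to 453 and 364 RPKM in the chronic HDM libraries. For the sum, the *Irf4* share and the *Irf5* and *Irf8* share the groups did not overlap (exact permutation test, two-sided, p = 0.333 each), which is the smallest p that 2 libraries against 2 allow.

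**Figure D3:**
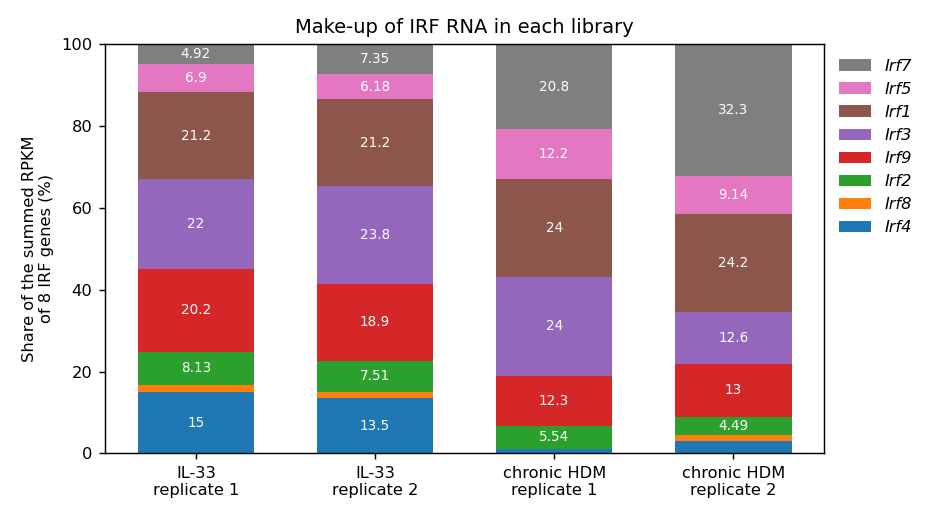
Share of each IRF gene in the summed RPKM of the 8 genes (vertical axis, %), in a stacked bar for each of the 4 libraries, with shares over 4% printed. The *Irf7* segment at the top grows from 4.92% and 7.35% after IL-33 to 20.8% and 32.3% after chronic HDM, and the *Irf4* segment at the bottom falls from 15.05% and 13.5% to 1.18% and 2.97%.

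The genes most like *Irf4* and *Irf7* over the 4 libraries were those at the smallest Euclidean distance between centred log2(RPKM + 1) profiles. A profile has 4 points, and the list is a description. Nearest to *Irf4* were *Lman1*, a cargo receptor between endoplasmic reticulum and Golgi (distance 0.108, 76.5 and 73.9 RPKM after IL-33 against 10.8 and 20.2 after chronic HDM), *Arl14ep* (distance 0.114) and *Rbl1*, which encodes the pocket protein p107 (distance 0.141). Nearest to *Irf7* were *Arhgef1*, an activator of the GTPase RhoA (distance 0.257, 11.01 and 21.1 RPKM against 102 and 114), *Sbf1* (distance 0.264) and *Clec2d*, a C-type lectin (distance 0.296).

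Around the family, interferon genes themselves had almost no reads, and 1 gene among receptors, sensors and their kinases was called. Of 18 interferon genes, 17 had no read in any library. The exception was *Ifng*, with 25 and 10 reads in the IL-33 libraries and none in the chronic HDM libraries. Of 10 tested interferon receptor, kinase and STAT genes, 0 were called by limma in either direction at an adjusted p of 0.01 (3.34% of all tested genes). An unadjusted p under 0.05 was found for 4 of 10, beside 36.7% of all tested genes. At an adjusted p of 0.05 with a log2 fold change over 1, 0 were higher after IL-33 (13.8% of all tested genes) and 3 higher after chronic HDM (4.78% of all tested genes), namely the receptor chains *Ifnar1* and *Ifngr2* and the kinase *Tyk2*, at log2 fold changes of -1.22, -1.56 and -1.29. Most abundant on this list were *Ifngr1* (186 and 252 RPKM after IL-33, 231 and 136 after chronic HDM) and *Jak1* (125 and 123, 136 and 96.4), whose groups overlapped.

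Of 17 tested sensors, adaptors and kinases upstream of the IRFs, 1 was called as higher after IL-33 (2.8% of all tested genes) and 0 as higher after chronic HDM (0.536%). The called gene was *Tmem173*, which encodes STING, the adaptor that leads from cytosolic DNA to IRF3, with 155 and 165 RPKM in the IL-33 libraries against 28.5 and 43.3 RPKM in the chronic HDM libraries (log2 fold change 2.15, adjusted p = 0.00987 from limma). At an adjusted p of 0.05, *Myd88* (1.27) and *Mavs* (1.20) were added on the IL-33 side and the IRF kinase gene *Ikbke* (-2.33) on the chronic HDM side. *Tlr3*, *Tlr7* and *Tlr9* had no reads in any library. Of 9 tested partners of IRF4 and IRF8 on DNA, 2 were called as higher after chronic HDM (0.536% of all tested genes) and 0 as higher after IL-33 (2.8%). The 2 were *Jun* (-2.72, adjusted p = 0.00737 from limma) and *Junb* (-2.56, adjusted p = 0.00700). *Batf* and *Batf3*, which join IRF4 in BATF-AP-1 complexes, had log2 fold changes of 1.02 and 2.31, with *Batf3* at 23.9 and 26.1 RPKM in the IL-33 libraries against 6.18 and 2.85 (adjusted p = 0.0192 and 0.0216 from limma). Of 8 tested IRF corepressors and regulators, 0 were called by limma in either direction (3.34% of all tested genes) and 5 had an unadjusted p under 0.05 (36.7%). *Irf2bpl* held 4.33 and 3.83 RPKM in the IL-33 libraries against 17.1 and 22.8 RPKM in the chronic HDM libraries (log2 fold change -2.03, adjusted p = 0.0200), and its relatives were at -0.86 (*Irf2bp2*, adjusted p = 0.154) and 1.40 (*Irf2bp1*, adjusted p = 0.126). *Socs1*, an inhibitor of cytokine receptor signalling and among the most abundant on this list, was at a log2 fold change of -1.18 and was not called.

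Classical interferon-stimulated genes lay mostly on the side of *Irf7*. Of 22 tested, 0 were called in either direction by limma at an adjusted p of 0.01 (3.34% of all tested genes), with 12 at an unadjusted p under 0.05 (36.7% of all tested genes). Of the 22, 14 lay higher throughout the chronic HDM group (23.5% of all tested genes), 1 throughout the IL-33 group (41.7% of all tested genes) and 7 overlapped. At an adjusted p of 0.05 with a log2 fold change over 1, 7 were higher after chronic HDM (4.78% of all tested genes) and 0 after IL-33 (13.8%). The 7 were *Oasl2* (-2.85), *Ifi44* (-2.77), *Rtp4* (-2.64), *Ifit1* (-2.47), *Rsad2* (-2.33), *Oasl1* (-2.14) and *Oas3* (-1.79), all log2 fold changes, picked out with the values in view. The median log2 fold change was -1.06 over the 22 genes, beside 0.28 for all tested genes, and -0.43 without chronic HDM replicate 2. The most abundant, *Ifi35* and *Bst2*, were at log2 fold changes of 0.66 and -0.63. Macrophages also express these genes, and the summed macrophage markers were 24.0 to 90.3 RPKM after IL-33 and 961 to 2421 RPKM after chronic HDM, in cells sorted as negative for CD11b and CD11c. Their part in these values was not tested. Among 19 tested genes of the interferon-γ and IRF1 axis, 0 were called by limma in either direction (3.34% of all tested genes), with 10 at an unadjusted p under 0.05 (36.7% of all tested genes). Non-overlap was near the background, with 8 higher in both IL-33 libraries (41.7% of all tested genes) and 4 in both chronic HDM libraries (23.5%), and a median of 0.13 that turned to -0.10 under median-of-ratios scaling and -0.27 without 45S RNA. *Igtp* (1.41, adjusted p = 0.0111) and *Tap1* (1.29, adjusted p = 0.0149) stood on the IL-33 side, and *Cxcl10* (-2.94, adjusted p = 0.0135) and the most abundant member *B2m* (-0.83, adjusted p = 0.0133) on the chronic HDM side. *H2-D1*, the next in abundance, was at -0.01.

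Of 12 genes listed as dependent on IRF4 in lymphocytes, 3 were called as higher after IL-33 (2.8% of all tested genes), 2 on the chronic HDM side (0.536%), and 7 missed the threshold, with a median log2 fold change of 1.44 (0.85 without chronic HDM replicate 1). The list was written with results of these data known and is not independent evidence of a direction. *Il9*, a cytokine gene, held 23.7 and 16.6 RPKM in the IL-33 libraries and no read in the chronic HDM libraries, at least 66.7-fold higher against 3 reads per library (adjusted p = 0.00723 from limma). *Ccr4*, a chemokine receptor gene, and *Il5*, a type 2 cytokine gene, were at log2 fold changes of 3.57 and 2.20. *Gata3* (-3.54) and *Il1rl1* (-1.41), which encodes the IL-33 receptor, were called on the chronic HDM side. *Gata3* itself carries the reporter cassette, on both alleles after IL-33 and on 1 after chronic HDM by the sample labels. Any effect of the cassette on the *Gata3* level cannot be told apart from the stimulus and was not tested. *Il13* averaged 81.6 ± 7.10 RPKM in the IL-33 group against 17.2 ± 6.71 RPKM in the chronic HDM group (SD, n = 2 each) and missed the threshold (adjusted p = 0.0132 from limma). Markers of dendritic cells, which express IRF4 and IRF8, divided: *H2-Ab1* (log2 fold change 3.90) and *Cd74* (2.90) were called as higher after IL-33, whereas *Cd209a* and *Clec10a* had no reads in any library and *Flt3* at most 0.305 RPKM. The summed level of the 10 dendritic cell markers was 2264 to 2273 RPKM in the IL-33 libraries and 181 to 326 RPKM in the chronic HDM libraries. Nearly all of it was *Cd74* and the MHC class II genes *H2-Ab1* and *H2-Aa*, and the study states that ILC2s can express MHC class II. Every other marker on that list was at or below 7.175 RPKM in each library, so the sum does not measure dendritic cell RNA. *Mcpt8*, a basophil protease gene, held 45.8 and 39.2 RPKM in the IL-33 libraries and no read in the others, and the B cell receptor gene *Cd79b* held 38.4 and 27.4 against 8.74 and 6.67 RPKM. The part of other cells in the *Irf4* level was not tested.

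**Figure D4:**
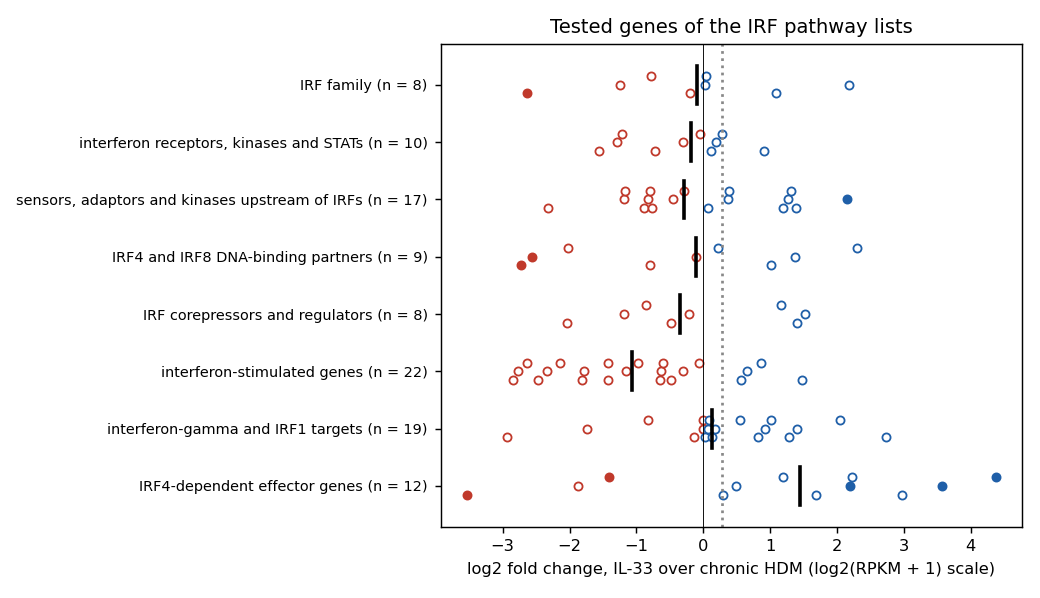
Log2 ratio (IL-33 to chronic HDM, log2(RPKM + 1) scale) of each tested gene in the IRF family and 7 lists of its pathway, with filled points for called genes, black bars for list medians and a dotted line for the whole-table median (0.28). The interferon-stimulated genes have the lowest median (-1.06) and the genes listed as dependent on IRF4 the highest (1.44).

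The log2 fold changes were compared over 16 alternative settings, many of which could not turn a sign. Other minimums and variance models, the replicate block and library weights left the log2 fold change as it was. Where the libraries of the groups did not overlap, another pseudocount or 1 library left out could not turn the sign either. For *Irf1*, *Irf4*, *Irf5* and *Irf7* only the other scalings and limma-voom could do so. The log2 fold change of *Irf7* ran from -3.03 to -2.35, that of *Irf5* from -1.64 to -0.89, that of *Irf1* from -1.29 to -0.63 and that of *Irf4* from 1.73 to 2.62, all 4 with the same sign in each of the 16 settings. *Irf2* kept its sign in 11 of 16, *Irf9* in 10 of 16 and *Irf3* in 15 of 16 settings, and *Irf8* in 14 of the 15 in which it was tested. Median-of-ratios scaling moved the median of all tested genes from 0.28 to 0.07, quantile normalization to 0.03 and scaling without 45S RNA to -0.10. Relative to that median, *Irf4* lay above and *Irf1*, *Irf5* and *Irf7* below it under each of these scalings.

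**Figure D5:**
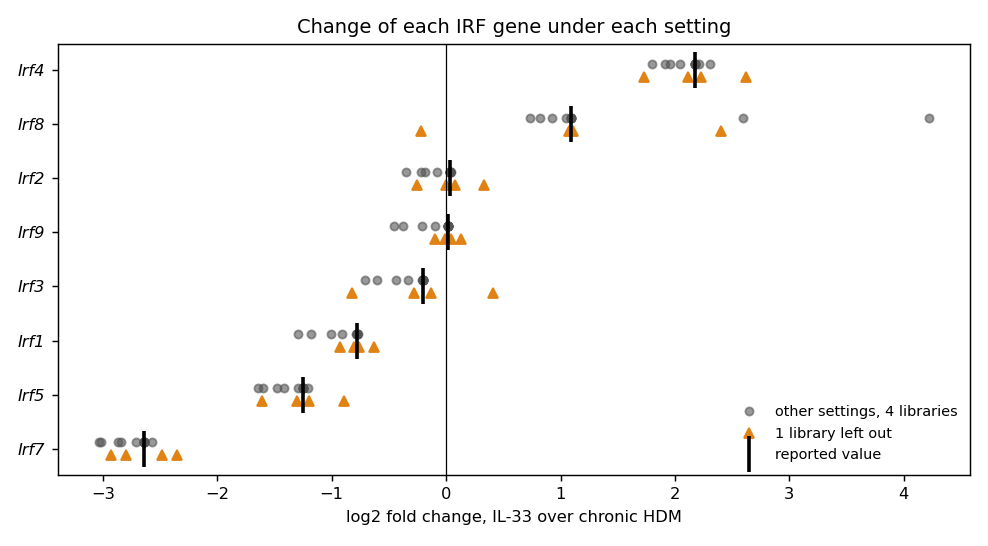
Log2 ratio (IL-33 to chronic HDM) of each IRF gene as reported (black bar), under the other settings with 4 libraries (grey circles) and with 1 library left out (orange triangles). *Irf4* stays above 0 and *Irf1*, *Irf5* and *Irf7* below it, *Irf8* runs from -0.22 to 4.22, and *Irf2*, *Irf3* and *Irf9* fall on both sides of 0.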

How the data were processed

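Per the file headers and the study's methods, the authors used HISAT2 2.0.4 (the version stands in the submitters' notes) to align 51-base single reads of Smart-seq2 libraries, with mm10 as genome, and counted exons of 1 RefSeq transcript per gene with HOMER. The deposited values are RPKM, and they were used as they are. Smart-seq2 keeps neither strand nor molecular identifiers, so read floors cover counting error only.

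RPKM multiplied by exon length came in steps of 1 read. Within 0.1 of a read, 99.8% to 100% of values of up to 20 reads were whole, and the steps gave depth and reads per gene. Genes averaging 2 RPKM or more over the 4 libraries (9523) were tested on log2(RPKM + 1) with limma (version 3.58.1, R 4.3.3, intensity trend, two-sided, Benjamini-Hochberg adjustment over all tested genes). Calls needed a log2 fold change beyond 1 and an adjusted p below 0.01, the study's thresholds. The study applied them to a DESeq2 fit, not to limma on RPKM, and reported more differentially expressed genes than were called here. A gene that was not called here can therefore be among those that the study reported. In simulated data for this comparison (3 sets of 9523 genes), 3.67% of genes changed by 2 and 78.3% of those changed by 4 on the log2 scale were called, and 0 unchanged genes. Over the 3 sets, 300 genes were changed by 2 and 300 by 4 beside 27969 unchanged, with the spread set by hand. In the real data 36.7% of tested genes had an unadjusted p under 0.05, so these rates need not hold there.

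All 8 members were named with every value. Of other lists, up to 4 called genes by size of change were named or, with none called, the 2 most abundant, and genes at an adjusted p under 0.05 as well as *Il13*, *Il1rl1*, *Spi1* and the *Irf2bp* genes were added after their values had been seen. The members and lists were chosen with earlier results of these data known. Exon overlaps came from GENCODE M21, whose *Irf7* transcript has 2237 exon bases against 1751 in the deposited values. Protein sequences were not used here, and a few genes of the lists are not reported here by name. Samples were grouped by their titles, and the alternatives tried were other scalings, pseudocounts, minimums and variance models, a replicate block and each library left out. Figures were drawn with matplotlib 3.10.9.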

Additional observations from a re-analysis of the deposited data

How the results depend on the processing

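Beside 267 genes higher after IL-33 and 51 higher after chronic HDM, the counts were 1311 and 455 at an adjusted p of 0.05, 502 and 107 with a minimum of 5 RPKM, 987 and 267 with the replicate block and 692 and 143 with a weight for each library. Fewer genes were higher after IL-33 under quantile normalization (50), median-of-ratios scaling (111) and scaling without 45S RNA (54), where 41, 45 and 40 were higher after chronic HDM. With a pseudocount of 0.1, no minimum RPKM, no intensity trend or limma-voom, 0 and 0 genes were called, against 3277, 4013, 3327 and 3055 genes at an unadjusted p under 0.05. Without 1 library the counts ran from 0 to 1960 and from 0 to 664, with 0 without IL-33 replicate 1 or 2 (1316 and 1396 genes at an unadjusted p under 0.05), because the spread then comes from the less alike chronic HDM pair.

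Members called as higher after IL-33 numbered 1 in place of 0 at an adjusted p of 0.05, with the replicate block and with library weights, and 0 to 2 without 1 library. Members called as higher after chronic HDM numbered 0 in place of 1 with a pseudocount of 0.1, no minimum, quantile normalization, scaling without 45S RNA, no trend or limma-voom, and 0 to 2 without 1 library. *Irf7* stood at -2.71, -2.64, -3.01, -3.03, -2.64 and -2.84 in those 6 settings and at -2.93 to -2.35 without 1 library. *Irf4* was called at 2.17 with the replicate block and with library weights and stood at 1.73 to 2.62 without 1 library, and *Irf5* at -1.61 to -0.89. *Irf8* stood at 2.60 with a pseudocount of 0.1, at 4.22 with limma-voom and at -0.22 to 2.40 without 1 library, and could not be tested at a minimum of 5 RPKM.

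Signs turned for *Irf2* (-0.22, -0.18, -0.35 and -0.079 under quantile normalization, median-of-ratios scaling, scaling without 45S RNA and limma-voom, and -0.26 to 0.33 without 1 library), for *Irf9* (-0.46, -0.21, -0.38 and -0.10, and -0.10 to 0.13) and for *Irf3* (-0.82 to 0.41 without 1 library). List medians turned for the DNA-binding partners (0.058 at a minimum of 5 RPKM, and -0.23 to 0.0084 without 1 library, the highest without chronic HDM replicate 1) and the interferon-γ and IRF1 targets (-0.10 under median-of-ratios scaling, -0.27 without 45S RNA, and -0.048 to 0.42 without 1 library, the lowest without IL-33 replicate 2). The causes were not tested.

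The log2 ratio of the summed IRF RPKM, -0.61, was -1.07 under quantile normalization, -0.84 under median-of-ratios scaling and -0.95 as reads not divided by exon length, and ran from -0.76 to -0.45 without 1 library. In reads, the *Irf4* share differed by 22.1 percentage points in place of 12.2 and the *Irf5* and *Irf8* share by -4.51 in place of -3.21. Replicate numbers were tried as a block although same-numbered libraries did not deviate together (r = -0.0385 over 9523 genes). The replicate block changed the call of *Irf4* (adjusted p = 0.00253) and of no other member.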
